A study of Mus musculus with 2 samples.

Results

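The genes described here are 10 members of the NF-kB network: the 5 subunit genes Nfkb1, Nfkb2, Rela, Relb and Rel, the feedback inhibitor genes Nfkbia and Tnfaip3, and the chemokine genes Cxcl2, Ccl3 and Ccl4. They were picked by gene symbol from 42462 named genes, with results from these libraries already known, so their levels are given as a description and carry no test. The data are total RNA-seq of hematopoietic stem cells (HSC) from adult male C57BL/6J mice aged 5 to 6 weeks, with replicate 1 and replicate 2 in a single group that received no treatment named in the labels. Each library was made from 100 ng of RNA depleted of ribosomal RNA with a ScriptSeq kit, and the protocol's title places the isolation in bone marrow. The gate of the sort, pooling of animals, and whether the replicates came from different animals are, in the sources used here, not given, and both libraries cite the same donor record.

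NF-kB factors are dimers of Rel-homology proteins that wait in the cytoplasm, bound by I-kappa-B inhibitors. Receptors for tumour necrosis factor, interleukin 1 or microbial products activate the IKK kinase, which marks I-kappa-B for ubiquitination and destruction, and the freed dimer enters the nucleus. Among its fast targets are chemokines and its own brakes, and in hematopoietic stem cells the pathway is known for roles in survival, emergency blood formation and exit from quiescence.

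Replicate 1 held 27901074 expected counts and replicate 2 held 48490188, so a gene without counts could lie at up to 0.108 and 0.0619 CPM, the share that 3 counts of the total allow, which covers counting error only. The 10 genes took 19093 counts in replicate 1 and 35700 in replicate 2. Levels are in TPM, a share of all transcripts in which counts are divided by length, and protein-coding genes held 16.3% of all TPM in replicate 1 and 20.3% in replicate 2. The median protein-coding gene had a log2 ratio of -0.29 for replicate 1 over replicate 2, and each such ratio below is centred, with that shift taken out, unless called uncentred. Of 15 genes listed as HSC markers, 14 reached 1 TPM in each library. Cd34 had 145 and 166 TPM, Meis1 42.7 and 52.1 TPM and Kit 36.4 and 45.1 TPM in replicates 1 and 2. Slamf1 had only 0.42 and 0.43 TPM, and Flt3, from the list of dendritic cell markers, had 57.9 and 53.2 TPM. Whether stem cells or progenitors gave these levels was not tested. Genes listed as markers of other blood cells were detected too, with all 15 neutrophil markers and 7 of 15 monocyte and macrophage markers at 1 TPM or more in both libraries. Whether their RNA came from other cells or from the HSC themselves was not tested. In bulk RNA, fewer cells of a type and less RNA per cell cannot be told apart.

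Promoter sequence is shown for 4 of the genes because it carries the letters that NF-kB dimers are known to bind, or lacks them. RefSeq promoters (GRCm38.p6) were found for 7 of the 10 genes, the others being Nfkb1, Relb and Ccl4. The 10-base kappa-B consensus was searched on both strands in the 250 bases before each start. The lines below run 5′ to 3′ on the gene's strand, stop before any annotated exon, and have the matches in capitals. Nfkbia is chr12:55492648-55492897 on the minus strand, Cxcl2 is chr5:90903649-90903870 on the plus strand, Rel is chr11:23770971-23771219 on the minus strand, and Ccl3 is chr11:83649379-83649628 on the minus strand.
Nfkbia: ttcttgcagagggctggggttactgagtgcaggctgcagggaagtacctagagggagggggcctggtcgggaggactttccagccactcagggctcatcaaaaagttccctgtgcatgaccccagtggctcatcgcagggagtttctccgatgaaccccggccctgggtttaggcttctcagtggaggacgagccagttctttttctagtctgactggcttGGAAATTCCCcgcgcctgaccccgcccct
Cxcl2: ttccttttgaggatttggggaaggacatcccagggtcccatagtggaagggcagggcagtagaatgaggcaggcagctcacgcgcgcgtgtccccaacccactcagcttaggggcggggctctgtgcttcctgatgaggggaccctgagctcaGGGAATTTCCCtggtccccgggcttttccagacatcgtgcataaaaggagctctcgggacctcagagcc
Rel: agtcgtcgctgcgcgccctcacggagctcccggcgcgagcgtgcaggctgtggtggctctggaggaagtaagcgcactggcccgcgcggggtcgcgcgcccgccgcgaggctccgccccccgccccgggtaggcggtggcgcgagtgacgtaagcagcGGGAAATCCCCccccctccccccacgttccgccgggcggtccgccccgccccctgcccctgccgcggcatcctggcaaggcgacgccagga
Ccl3: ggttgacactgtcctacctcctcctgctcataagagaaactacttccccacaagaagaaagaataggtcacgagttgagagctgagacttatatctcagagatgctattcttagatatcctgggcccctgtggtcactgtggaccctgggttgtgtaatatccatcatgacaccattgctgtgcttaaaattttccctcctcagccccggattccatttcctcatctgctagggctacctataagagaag

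In Nfkbia the match began 29 bases before the start and lay on the opposite strand. Cxcl2 had overlapping matches on the 2 strands, beginning 97 and 96 bases before its start, and Rel had such a pair at 92 and 91 bases. The Ccl3 stretch held no match, which says only that these letters are not in this window, and Rela was also without one. Nfkb2, which has 3 RefSeq starts, had matches before each of them, and Tnfaip3 had matches 125 and 12 bases before one of its starts. Only 0, 0 and 16 bases of the Nfkb2 windows and 3 of that Tnfaip3 window precede an annotated exon, and these matches lay outside those bases. The other Tnfaip3 start, with all 250 bases before any exon, had no match. In all, 5 of the 7 genes had a match, as did 4.46% of 27025 genes with a promoter and 5.1% of 7587 protein-coding genes that reached 1 TPM in each library. The members' promoters had a median of 62.2% G and C, against 60% for the promoters of those expressed genes. A match is a description of the sequence and does not show binding.

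All 10 genes reached 1 TPM in each library, as did 44.0% of 21474 protein-coding genes and 24.0% of all named genes. The 3 chemokine genes together held 116 TPM in replicate 1 and 135 TPM in replicate 2, the 5 subunit genes 35.9 and 38.2 TPM, and the 2 inhibitor genes 28.4 and 43.8 TPM. In TPM, chemokine messages were thus more than 3-fold as abundant as those of all subunits together in each library. This comparison depends on division by length: in counts, Nfkb1 (5008 and 7928) was above Ccl3 (3574 and 4616) in replicates 1 and 2. By mean TPM the order was Ccl3, Ccl4, Nfkb1, Cxcl2, Nfkbia, Tnfaip3, Rela, Rel, Nfkb2 and Relb. Neighbours counted as ordered when one was above the other in each library with no overlap of their deposited intervals, and 5 of 9 neighbouring pairs were. Nfkb1, Cxcl2, Nfkbia and Tnfaip3 could not be ordered from one to the next, nor could Nfkb2 and Relb. Of all 45 pairs 38 were ordered, and 5 pairs turned round between the replicates, 3 of which involved Cxcl2.

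**Figure D1:**
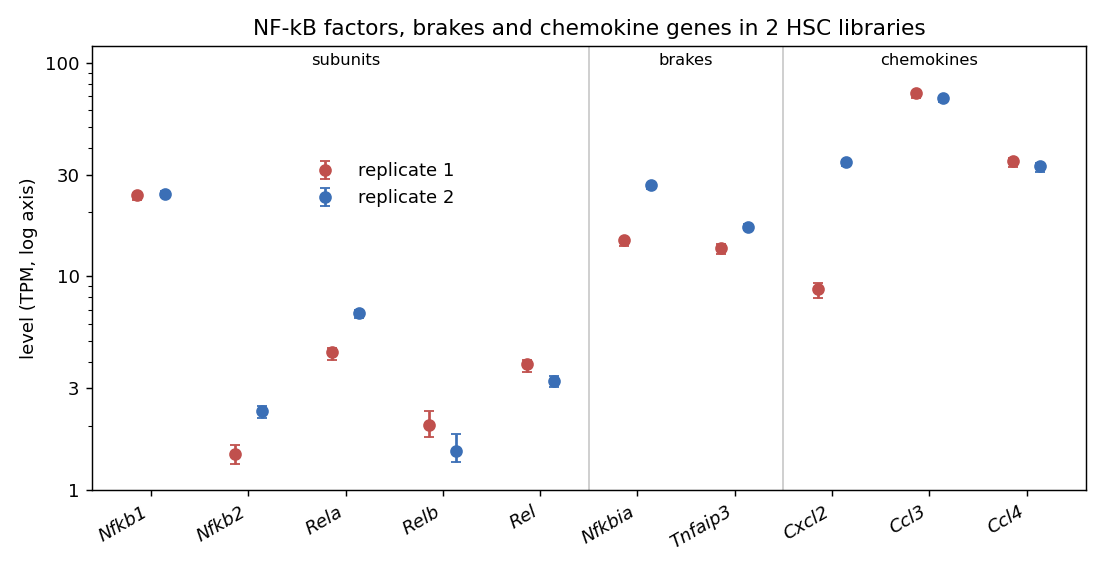
Level of each gene in TPM on a log axis, with replicate 1 in red left of replicate 2 in blue, and bars for the deposited intervals. Ccl3 is highest in both libraries at 72.1 and 68.1 TPM, and Cxcl2 shows the widest gap, with 8.77 TPM in replicate 1 and 34.3 TPM in replicate 2.

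Nfkb1, which encodes p105 and its processed form p50, led the subunits. This gene (ENSMUSG00000028163, chr3:135584655-135691547, minus strand) had 24.1 TPM (interval 22.9 to 24.6) in replicate 1 and 24.4 TPM (23.6 to 25.02) in replicate 2, a mean of 24.2 ± 0.205 TPM (SD, n = 2). The intervals overlapped, and the mean lay above that of 94.4% of protein-coding genes. Its centred log2 ratio was 0.27 (0.17 to 0.35), against -0.02 uncentred.

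Nfkb2 encodes p100 and p52 of the non-canonical branch. Its gene (ENSMUSG00000025225, chr19:46304320-46312385, plus strand) had 1.48 TPM (1.33 to 1.62) in replicate 1 and 2.34 TPM (2.17 to 2.48) in replicate 2, a mean of 1.91 ± 0.608 TPM (SD, n = 2). Nfkb2 was the lower of the precursor genes in both libraries: the log2 ratio of Nfkb1 over Nfkb2 was 3.94 in replicate 1 and 3.33 in replicate 2, a 12.4-fold mean. Nfkb2 overlaps Psd on the other strand, and the strand setting of the counting is unknown here, so reads in that overlap cannot be assigned by strand. Psd itself had 0.06 and 0 TPM.

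Rela, or p65, has a strong transactivation domain and partners p50 in the classic dimer. The gene (ENSMUSG00000024927, chr19:5637483-5648130, plus strand) had 4.43 TPM (4.08 to 4.63) in replicate 1 and 6.73 TPM (6.39 to 6.95) in replicate 2. Rel, or c-Rel, is the activating subunit best known from lymphoid cells. It (ENSMUSG00000020275, chr11:23736847-23770970, minus strand) had 3.89 TPM (3.57 to 4.08) in replicate 1 and 3.24 TPM (3.03 to 3.41) in replicate 2. Rela was above Rel in both libraries, by a log2 ratio of 0.18 in replicate 1, where the intervals almost touch, and of 1.03 in replicate 2.

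Relb, the activating partner of p52, was near the bottom of the order. The gene (ENSMUSG00000002983, chr7:19606217-19629438, minus strand) had 2.02 TPM (1.78 to 2.36) in replicate 1 and 1.52 TPM (1.36 to 1.82) in replicate 2, from 269 and 286 counts. Rela exceeded Relb 3-fold in the mean and Rel exceeded it 1.97-fold, both in each library. Nfkb2 and Relb, the non-canonical pair, were not ordered: their log2 ratio was -0.42 in replicate 1 and 0.59 in replicate 2, and on CPM, without division by length, it averaged 1.07. Nfkb1 lay 4.38-fold above Rela in the mean.

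Several of these genes have transcripts of different kinds, and total RNA holds unspliced and partly spliced molecules. The deposited isoform percent divides a gene's TPM among its transcripts. For Nfkb1 the leading Nfkb1-206 (3007 nt) had 35.2% in replicate 1 and 32.6% in replicate 2, and Nfkb1-203 (2354 nt), which covers only the 3′ stretch chr3:135584657-135608270, had 31.9% and 19.3%. Transcripts annotated as retaining an intron made up 23.7% of Nfkb1 TPM in replicate 1 and 37.5% in replicate 2. The transcript that spans the whole gene, Nfkb1-201 (4117 nt), chosen after its values were seen, had 2.79% and 10.6%. Most Nfkb1 TPM in both libraries was therefore assigned to forms shorter than the full gene.

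Relb was the only gene of the 10 whose leading transcript differed between the libraries. Relb-201 (2200 nt) had 55.2% in replicate 1 and 13.8% in replicate 2, whereas Relb-209 (931 nt) had 19.5% and 50.1%. With under 300 counts per library and 9 transcripts to share them, this split is uncertain: from posterior means, Relb-201 had 26.2% in replicate 1 and 6.16% in replicate 2. Nfkb2-202 held 100% of Nfkb2 in replicate 1 and 96.1% in replicate 2. Rela, Rel, Nfkbia and the 3 chemokine genes have a single transcript in the tables.

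**Figure D2:**
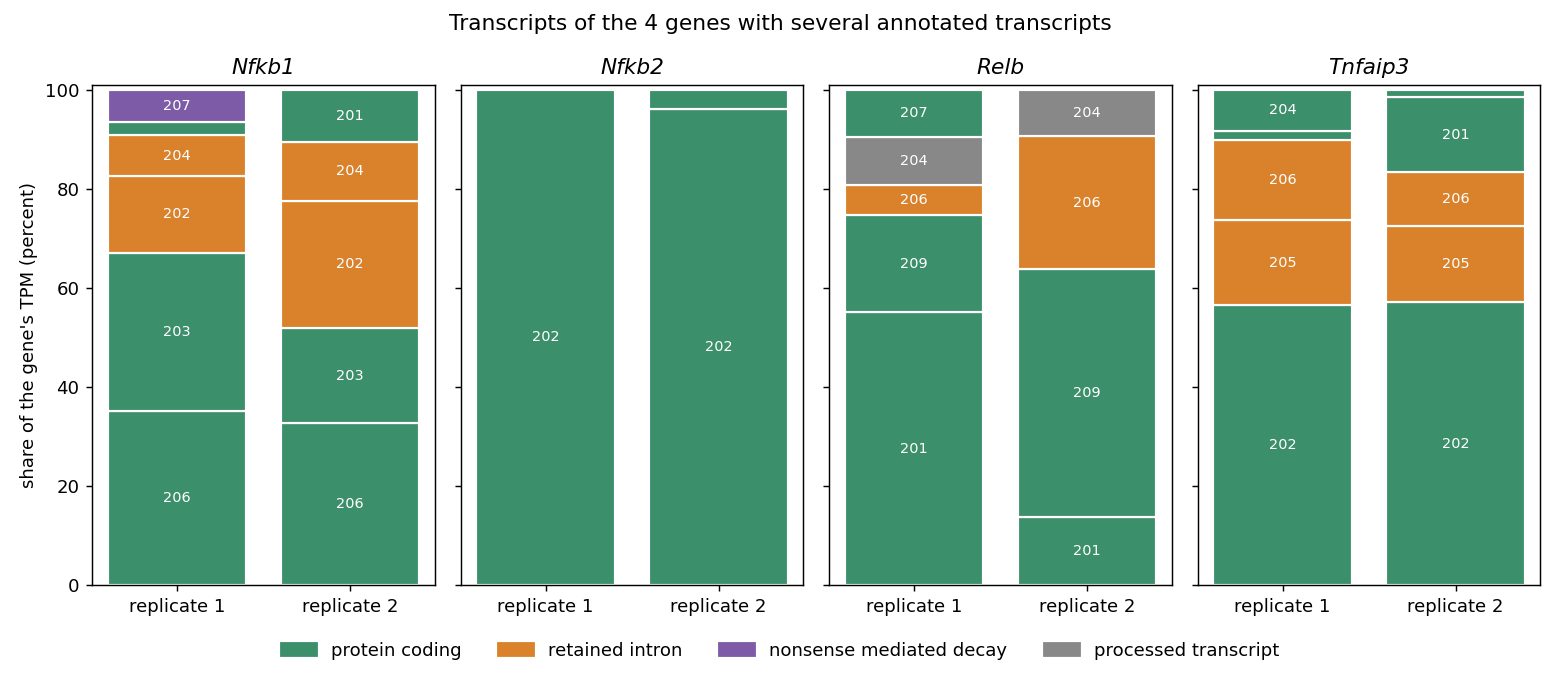
Share of each gene's TPM in its transcripts, in percent, for the 4 genes with several, with replicate 1 left of replicate 2; colours give the annotated kind and numbers the transcript's suffix where it holds at least 5%. Tnfaip3-202 keeps 56.6% and 57.1% of its gene, whereas Relb-201 has 55.2% in replicate 1 and 13.8% in replicate 2.

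Both brakes on the pathway were abundant, and both were above Rela. Nfkbia encodes I-kappa-B alpha, which NF-kB induces and which carries the dimer out of the nucleus. The gene (ENSMUSG00000021025, chr12:55489410-55492647, minus strand) had 14.8 TPM (13.9 to 15.2) in replicate 1 and 26.7 TPM (25.7 to 27.2) in replicate 2, a mean of 20.7 ± 8.41 TPM (SD, n = 2). Replicate 2 was the higher and the intervals did not overlap, with a centred log2 ratio of -0.56 (-0.68 to -0.46), which is short of 2-fold. Nfkbia lay 3.59-fold above Rela in the mean, and it was above Nfkbib and Nfkbie in both libraries, 8.26-fold and 5.36-fold in the mean. Nfkbiz came closer, with 13.9 TPM in replicate 1 and 17.2 TPM in replicate 2, and in replicate 1 its interval overlapped that of Nfkbia.

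Tnfaip3 encodes A20, a ubiquitin-editing enzyme that shuts off signalling upstream of IKK. The gene (ENSMUSG00000019850, chr10:19000910-19015657, minus strand) had 13.6 TPM (12.8 to 14.2) in replicate 1 and 17.1 TPM (16.5 to 17.5) in replicate 2, a mean of 15.3 ± 2.45 TPM (SD, n = 2). Once centred, its log2 ratio was -0.03 (-0.17 to 0.08), so the gap in TPM was about that of the median protein-coding gene. From TMM-scaled counts, without division by effective length (3561 nt in replicate 1 and 3951 nt in replicate 2), the log2 ratio was -0.26. Transcripts with a retained intron held 33.3% of Tnfaip3 TPM in replicate 1 and 26.2% in replicate 2, and the longest of them, Tnfaip3-205 (6199 nt), held 17.1% and 15.4%. Nfkbia and Tnfaip3 were not ordered: their log2 ratio was 0.12 in replicate 1 and 0.64 in replicate 2, and on CPM, without division by length, it averaged -1.08.

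Ccl3 and Ccl4 encode MIP-1 alpha and MIP-1 beta, chemokines that attract leukocytes, and MIP-1 alpha is known as an inhibitor of stem cell proliferation. Ccl3 (ENSMUSG00000000982, chr11:83647844-83649355, minus strand) had 72.1 TPM (68.5 to 73.1) in replicate 1 and 68.1 TPM (65.6 to 69.5) in replicate 2, a mean of 70.1 ± 2.8 TPM (SD, n = 2). Ccl4 (ENSMUSG00000018930, chr11:83662584-83664683, plus strand) had 34.9 TPM (32.5 to 36.0) in replicate 1 and 32.7 TPM (30.9 to 33.9) in replicate 2. In uncentred TPM the intervals of each gene overlapped between the libraries, and the means lay above those of 98.5% and 96.3% of protein-coding genes. The centred log2 ratios were 0.37 (0.27 to 0.45) for Ccl3 and 0.38 (0.23 to 0.51) for Ccl4, above the median gene and short of 2-fold. The log2 ratio of Ccl3 over Ccl4 was 1.05 in replicate 1 and 1.06 in replicate 2, the steadiest of the 13 gene pairs examined, with a 2.07-fold mean.

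Cxcl2 encodes MIP-2, a neutrophil attractant that signals through CXCR2. The gene (ENSMUSG00000058427, chr5:90903871-90905938, plus strand) had 8.77 TPM (7.96 to 9.28) from 653 counts in replicate 1 and 34.3 TPM (32.9 to 35.1) from 3605 counts in replicate 2. It was higher in replicate 2, with intervals far from overlap, and its mean of 21.5 ± 18.1 TPM (SD, n = 2) describes neither library. The centred log2 ratio was -1.66 (-1.85 to -1.53), a 3.17-fold difference, and 3.88-fold uncentred. Cxcl2 was 8.14-fold below Ccl3 in replicate 1 and 1.98-fold below it in replicate 2.

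A gene was called apart between the replicates when its mean was at least 1 TPM, its centred ratio exceeded 2-fold and its centred intervals did not overlap. Of the 10 genes, all of which passed the filter on low values, Cxcl2 alone was apart. Over all 10958 named genes tested, 10.4% were apart, with 6.54% higher in replicate 1 and 3.84% higher in replicate 2, so a count of 1 in 10 is near the background. Among 9900 protein-coding genes the shares were 7.13% apart in either direction and 3.15% higher in replicate 2. Without centring the split of the calls over all named genes turned, with 36.2% of them higher in replicate 1 against 63% when centred, and Cxcl2 was called either way. The size of the Cxcl2 ratio exceeded that of 98.1% of these protein-coding genes, whose quartiles lay at -0.28 and 0.31. The other 9 genes lay within 1 log2 unit, 5 above 0 and 4 below, and the members' median ratio was 0.12. Of these, Nfkb1 changed sign without centring, and Relb had the widest interval, 0.68 (0.25 to 1.09). With 1 library per replicate there is no test of these differences.

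**Figure D3:**
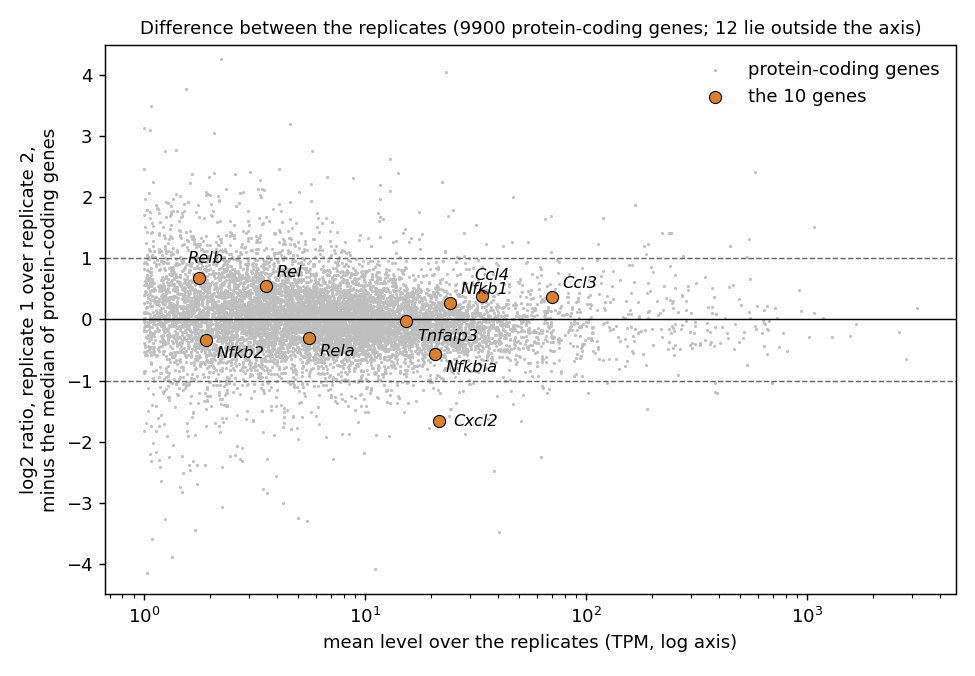
Centred log2 ratio of replicate 1 over replicate 2 against mean TPM on a log axis, for 9900 protein-coding genes in grey and the 10 genes in orange; dashed lines mark 2-fold. Cxcl2 lies at -1.66, below the dashed line, and the other 9 genes lie between the lines.

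Cell type markers also differed between the libraries. For comparison, 6.54% of all named genes tested were apart and higher in replicate 1, and 3.84% were apart and higher in replicate 2. Neutrophil markers summed to 3227 TPM in replicate 1 and 1243 TPM in replicate 2, and 11 of 15 were apart, all higher in replicate 1; none was at 0. Monocyte and macrophage markers (Lyz2 and Ly6c2 with counts partly shared with other genes) summed to 389 and 185 TPM, with 4 of 8 tested apart and higher in replicate 1, and basophil and mast cell markers to 40.6 and 19.9 TPM, with 5 of 7. These lists were thus lower in the library where Cxcl2 was higher. Erythroid markers went partly with Cxcl2, with uncentred sums of 120 TPM in replicate 1 and 250 TPM in replicate 2. Of 10 tested, 9 had a log2 ratio below 0, and 5 were apart and higher in replicate 2, among them Car1 with 9.74 and 66.9 TPM. Car2, the largest part of both sums with 83.5 and 128 TPM, was not apart (log2 ratio -0.33). Hbb-bt (-0.02) and Tfrc (0.05) hardly differed. Dendritic cell markers summed to 126 and 108 TPM, mostly from Flt3 (57.9 and 53.2 TPM) and Cst3 (49.1 and 40.9 TPM). From the same list, Itgax (0.4 and 0.26 TPM), Clec9a (0.08 and 0.1 TPM) and Xcr1 (0.06 and 0.05 TPM) were low. T and natural killer cell markers summed to 16.6 and 15.9 TPM and B cell markers to 5.8 and 4.19 TPM. In these lists none was apart, of only 4, 3 and 1 genes tested. Trac, Pax5 and Siglech, picked from these lists, had no counts and are listed at 0 TPM in both. Their deposited upper bounds in replicates 1 and 2 were 0.153 and 0.132 TPM for Trac, 1.17 and 1.28 TPM for Pax5, and 0.144 and 0.103 TPM for Siglech. Yet 4 of 10 dendritic cell, 3 of 13 T and natural killer cell and 1 of 10 B cell markers reached 1 TPM in both libraries. Among them were Nkg7 (10.2 and 9.36 TPM) and Cd79b (4.89 and 3.25 TPM). Which cells gave the RNA of any of these lists was not tested, nor was the part of other cells in the Cxcl2 and Nfkbia differences.

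Libraries also differed in fragment length, with an implied mean of 193 nt in replicate 1 and 245 nt in replicate 2. From TMM-scaled counts, without division by effective length, the log2 ratio of Cxcl2 was -1.66. Among immediate early genes, which mark recent stimulation, 21 of 22 were detected and the list summed to 678 TPM in replicate 1 and 950 TPM in replicate 2. Fos was highest with 212 and 234 TPM, followed by Jun with 65.6 and 95.6 TPM and Mcl1 with 45.2 and 64.1 TPM; Egr3 was lowest with 0.99 and 1.01 TPM. Of the 22 genes tested, 2 were apart, against 10.4% of all named genes in either direction and 3.84% higher in replicate 2. They were Nr4a1 (24.8 and 61.3 TPM, log2 ratio -1.01) and Fosl2 (1.93 and 5.42 TPM, log2 ratio -1.15). Both were higher in replicate 2, as Cxcl2 was. The list's median ratio was -0.21, and its part in the difference of Cxcl2 was not tested.

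The chemokine genes lie in a pair of chromosomal clusters, and their protein-coding neighbours within 300 kb were examined after the members' values were seen. Around Ccl3 and Ccl4, 13 of 20 protein-coding genes, the pair included, had at least 1 TPM in both libraries. The nearest other chemokine genes were far lower: Ccl6 had 5.41 TPM in replicate 1 and 1.28 TPM in replicate 2, Ccl9 had 5.92 and 8.96 TPM, and Ccl5 had 0.85 and 0.96 TPM. On the other side, Wfdc21 had 35.6 and 9.11 TPM, Wfdc18 had 2.5 and 1.36 TPM and Wfdc17 had 13.04 and 11.1 TPM. Ccl6 (log2 ratio 2.29), Wfdc21 (2.25) and Wfdc18 (1.12) were apart and higher in replicate 1, while Ccl3 and Ccl4 between them were at 0.37 and 0.38.

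Around Cxcl2, 3 of 12 protein-coding genes were detected: Cxcl2 itself, the platelet factor gene Pf4 with 5.67 TPM in replicate 1 and 5.87 TPM in replicate 2, and Mthfd2l with 1.63 and 1.69 TPM. The paralog Cxcl1 had 1 count in replicate 1 and 0 in replicate 2, and Cxcl3 had 8 and 0 counts. All 653 and 3605 counts of Cxcl2 were whole numbers to within 0.005, as were the gene counts of the other members, so reads split between genes did not contribute a fraction to them.

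**Figure D4:**
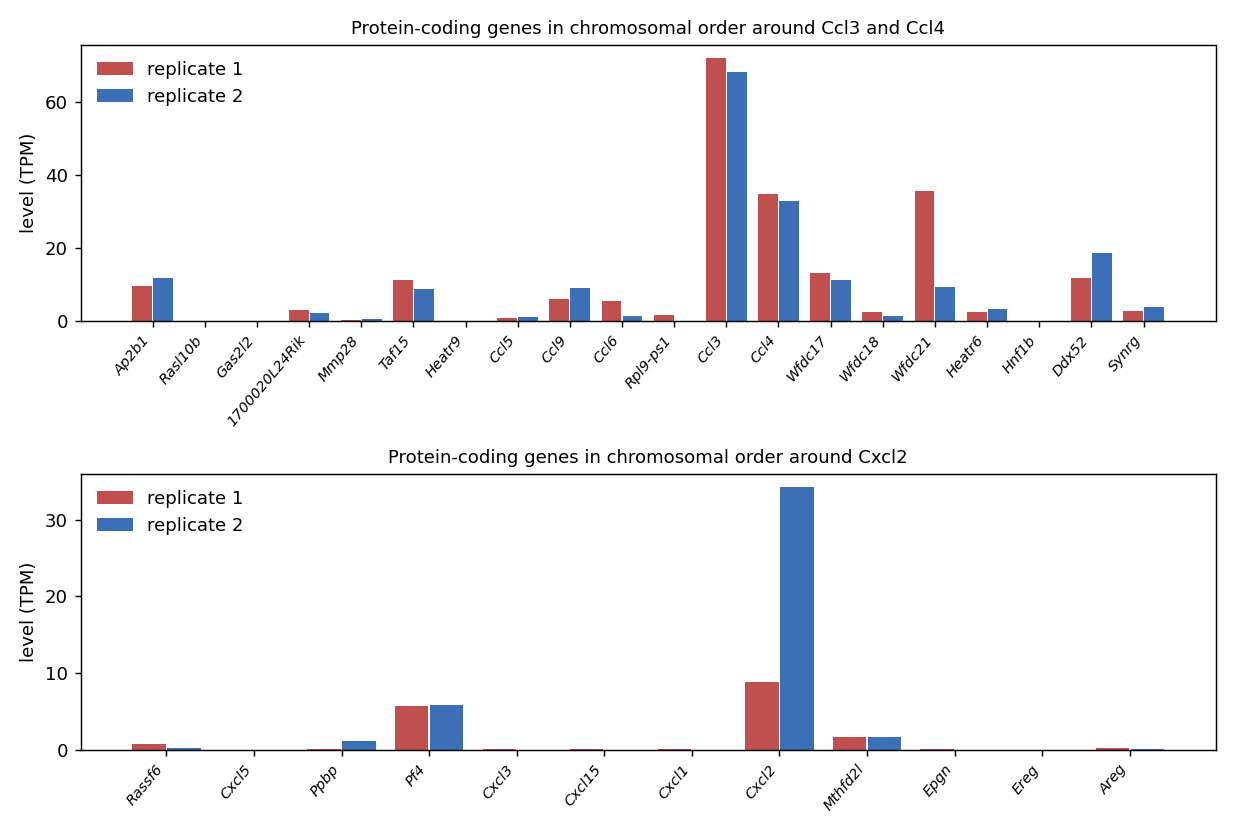
Level in TPM of the protein-coding genes within 300 kb of Ccl3 and Ccl4 (top) and of Cxcl2 (bottom), in chromosomal order, with replicate 1 in red left of replicate 2 in blue. Ccl3 is the highest of its stretch in both libraries, Wfdc21 reaches the level of Ccl4 in replicate 1 and not in replicate 2, and Cxcl2 stands at 8.77 and 34.3 TPM beside Cxcl1 and Cxcl3 near 0.

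In the plane of log2 TPM in replicate 1 and replicate 2, Ccl3 lay closest to Coro1a, Ptprc and Txnip, with 29 protein-coding genes within a distance of 0.25, and Ccl4 closest to Jmjd1c, Ndufb10 and Baz2b, with 45. No gene lay that close to Cxcl2, whose nearest were Ppa2 at 0.262 (7.46 and 31.5 TPM), Ubl5 at 0.263 (10.3 and 37.8 TPM) and Parl at 0.363 (11.1 and 37.6 TPM). With 2 libraries such likeness is a description of these samples.

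Across 7 lists of pathway genes, which cover inhibitors, kinases, receptors, ubiquitin regulators, targets and chemokine receptors, 65 of 99 were detected at 1 TPM in both libraries. Of 71 that passed the filter, 7 were apart and higher in replicate 1 and 4 were apart and higher in replicate 2, against the 6.54% and 3.84% of all named genes above. On TMM-scaled counts, a check added after the values were seen, 4 of these 11 were still apart. They were Tnf, Il10, Vcam1 and Ccr1. On those counts 9.08% of all named genes tested were apart, so 4 of 71 is not above the background.

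Of the further inhibitor genes, the I-kappa-B family together with Nkrf, 5 of 6 were detected and none of the 5 tested was apart. Nfkbiz, the nuclear I-kappa-B zeta, led with 13.9 TPM in replicate 1 and 17.2 TPM in replicate 2, followed by Nfkbid with 6.53 and 9.3 TPM and Nfkbie with 3.56 and 3.7 TPM. Bcl3, a nuclear partner of p50 and p52, was lowest with 0.43 and 1.07 TPM. All of them had lower TPM than Nfkbia in each library, though in replicate 1 the intervals of Nfkbiz and Nfkbia overlapped.

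IKK and its upstream kinases were detected for 9 of 10 genes. The catalytic subunit genes Chuk (IKK alpha) and Ikbkb (IKK beta) had 9.56 and 13.6 TPM in replicate 1 and 13.1 and 15.9 TPM in replicate 2; Ikbkb was above Chuk in both, by a mean of 1.31-fold. Tab2, an adaptor of the TAK1 kinase, was highest with 16.1 and 24.6 TPM. Map3k14, the NIK kinase of the non-canonical branch, was lowest with 1.68 TPM in replicate 1 and 0.9 TPM in replicate 2, and was apart at a log2 ratio of 1.12, against 0.96 from counts.

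All 17 ubiquitin regulators were detected, with a median of 10.4 TPM. The A20 and TAX1BP1 complex and the SCF ligase that marks I-kappa-B supplied the leaders: Tax1bp1 with 60.5 TPM in replicate 1 and 72.5 TPM in replicate 2, Skp1a with 58.2 and 71.9 TPM, and Cul1 with 26.1 and 33.4 TPM. Of the ligase's alternative substrate receptors, Btrc was lowest of the list with 2.04 and 2.34 TPM, and Fbxw11 had 9.05 and 11.8 TPM. Rnf31 (HOIP, which builds linear ubiquitin chains) was apart with 4.38 and 2.12 TPM, but its effective length was 1329 nt in replicate 1 and 3228 nt in replicate 2 and its log2 ratio from counts was -0.02.

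Receptors and adaptors were detected for 18 of 25 genes. The kinase genes Ripk1 (10.03 TPM in replicate 1 and 13.8 TPM in replicate 2, with counts partly shared with other genes) and Irak1 (9.84 and 13.5 TPM) and the interleukin 1 receptor gene Il1r1 (7.73 and 9.47 TPM) led, and Tlr1 was lowest with 0.03 and 0.27 TPM. Ltbr, the lymphotoxin beta receptor, had 3.01 TPM in replicate 1 and 13.9 TPM in replicate 2, and Tirap, an adaptor of Toll-like receptors, had 3.05 and 0.83 TPM. Both were apart in TPM, but their effective lengths differed more than 2-fold between the libraries, and from counts their log2 ratios were -0.70 and 0.67.

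Secreted targets other than the 3 chemokines were mostly low: 2 of 18 were detected, Ccl9 with 5.92 TPM in replicate 1 and 8.96 TPM in replicate 2 and Tnf with 3.61 and 9.1 TPM. Il1a, Cxcl5, Ccl7, Il12b, Csf2 and Csf3 had no count in either library. Tnf, the classic inducer and target of NF-kB, had 451 counts in replicate 1 and 1647 in replicate 2 and was apart at a log2 ratio of -1.02. Il10, an anti-inflammatory cytokine, had 0.78 and 3.4 TPM and was apart at -1.70. Like Cxcl2, Tnf and Il10 were higher in replicate 2. Il1b went the other way with 2.29 and 0.62 TPM from 92 and 89 counts, but its effective length was 465 nt in replicate 1 and 1112 nt in replicate 2, and from counts its log2 ratio was 0.82.

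Cell-bound and intracellular targets were detected for 14 of 18 genes. Cd69, an early activation antigen, was highest with 40.2 TPM in replicate 1 and 79.8 TPM in replicate 2, followed by Ier3 with 20.7 and 37.3 TPM and Irf1 with 24.2 and 25.97 TPM; Nos2 had no count. The list's median ratio was -0.14. Tnfaip2 was apart with 2.45 and 7.87 TPM (log2 ratio -1.35, and -0.86 from counts), and Vcam1, an adhesion molecule, was apart with 2.15 and 1.03 TPM (log2 ratio 1.29).

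The receptors for the 3 chemokines that are given here were low compared with their ligands. Cxcr2, the receptor of MIP-2 and also one of the neutrophil markers, had 3.14 TPM in replicate 1 and 1.85 TPM in replicate 2. Ccr1 had 1.9 and 0.74 TPM, and Ccr3 had 0.29 and 0.07 TPM. Cxcr2 and Ccr1 were apart and higher in replicate 1, with log2 ratios of 1.02 and 1.54, in the direction of the neutrophil markers and opposite to Cxcl2. The scavenger receptor genes Ackr1 and Ackr2 had no counts.

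**Figure D5:**
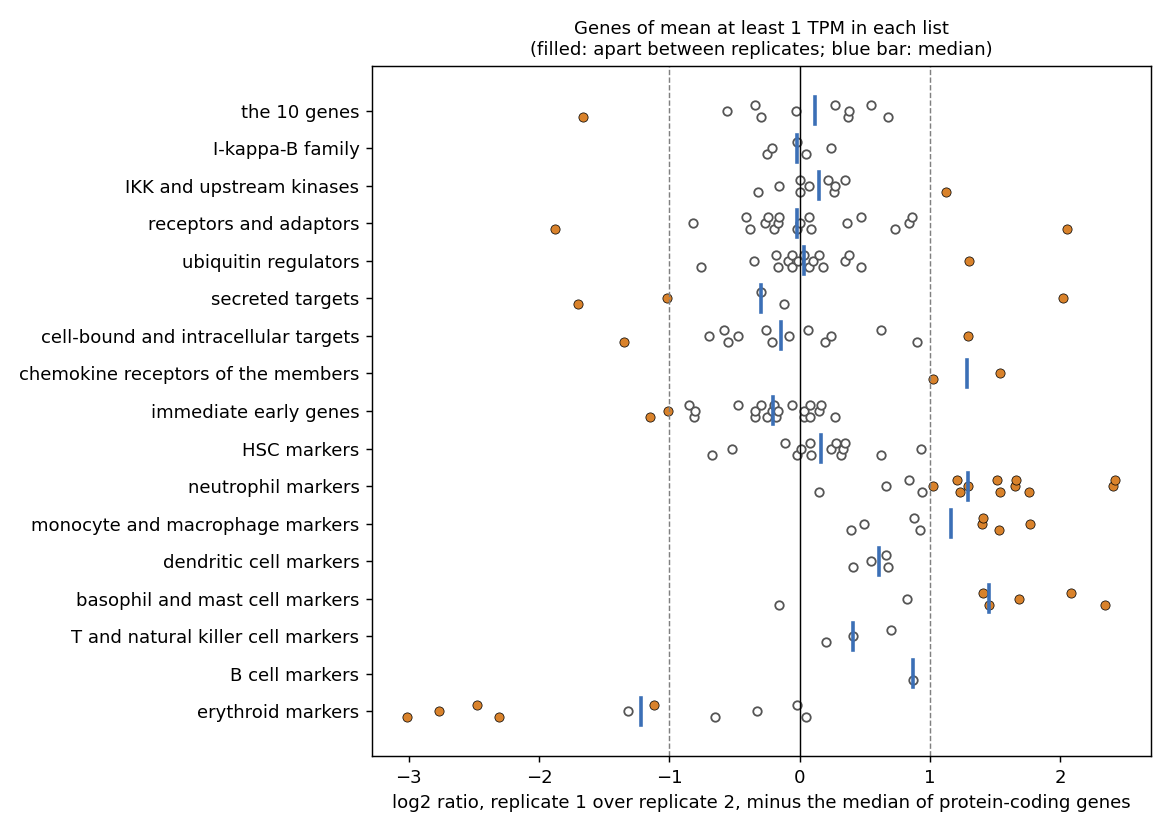
Centred log2 ratio of replicate 1 over replicate 2 for each gene of mean at least 1 TPM, by list, with genes apart filled, list medians as blue bars and 2-fold as dashed lines. Cxcl2 is the single filled point among the 10 genes, neutrophil markers lie to the right with a median of 1.29, and erythroid markers to the left with a median of -1.22.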

How the data were processed

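Total RNA-seq tables of 2 HSC libraries were used, as replicates of 1 group by the replicate number in the labels. The expected counts, TPM and FPKM were made by the authors; the sample text files name mm10 and GENCODE M4. Of the aligner, counter and strand setting nothing is given in the sources used here. The deposited posterior mean values and interval bounds are scores on the TPM scale, and the deposited isoform percent is a transcript's share of its gene's TPM. All columns with sample values were mapped (0 left out). GENCODE M21 supplied names and positions by gene identifier.

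Members and gene lists were chosen with earlier results of these data known. Named were all 10 members and both genes of 13 pairs, the 3 highest and the lowest genes of each list by mean TPM and list genes apart between replicates, with marker lists of other cells given by sums and counts. Some list genes are not reported here. Ratios used log2 (TPM + 0.1), replicate 1 over replicate 2, centred on the median of 9900 protein-coding genes of mean at least 1 TPM. No test was made, as 1 group of 2 libraries allows none, and SDs may be technical spread. Expected counts, total 27901074 and 48490188, were scaled in alternatives with edgeR 4.0.16 (TMM) and DESeq2 1.42.0 under R 4.3.3; other steps used Python 3.11.15, pandas 2.3.3 and numpy 2.4.6. The calling step was tested on simulated data in which each gene had the same effective length in both libraries. Calls that come from a shift in effective length were therefore not covered. Other alternatives were pseudocount 1, FPKM, posterior means, TPM over protein-coding genes, no filter, a mean of at least 10 counts, 1.5-fold, and each library left out.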

Additional observations from a re-analysis of the deposited data

How the results depend on the processing

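Cxcl2 was apart under all 10 settings of scaling, pseudocount, filter and threshold, with log2 ratios of -1.61 to -1.96. At 1.5-fold Relb joined it, for 2 of 10 members apart, against 24.8% of all named genes tested. The median member level, 18.0 TPM, was 97.5 TPM over protein-coding genes alone and 51.3 FPKM as deposited; it was 11.2 TPM without replicate 2 and 20.7 TPM without replicate 1. With either library left out, 8 of 9 neighbours were ordered instead of 5, fewer conditions then having to hold. The members' median log2 ratio of 0.12 was -0.17 uncentred and -0.06 with TMM or DESeq2 scaling, so its sign depends on the scaling. The count of named genes apart, 1138, was 742 with a pseudocount of 1 TPM, 3137 from posterior means (87.2% of them higher in replicate 1, against 63%), 3008 without a filter, 2422 at a mean of at least 10 counts and 2722 at 1.5-fold; apart from the number of genes tested or the threshold, the cause was not tested. Pathway genes apart numbered 11 of 71 tested, and 4 on TMM-scaled counts, where 9.08% of all named genes tested were apart. The other settings left these counts within 1.5-fold. Low counts limit Relb and its transcripts most. No paired analysis was possible because the libraries form a single group.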
